A study of Mus musculus with 12 samples.

Results

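Long intergenic RNAs (lincRNAs) are spliced or unspliced transcripts that are annotated as genes of their own without a protein product. Of 55487 genes in the counts, 134 lincRNAs were well detected in the sorted microglia. Whether any of them is translated was not examined. Not all of them lie between genes: 53 of the 134 shared exon positions with another gene on either strand, and 35 overlapped their nearest protein coding gene. A lincRNA was included when GENCODE M21 gave it the gene type lincRNA, it lay on an autosome and it had at least 10 counts in each of the 12 libraries. Of 5614 lincRNAs in the counts, 4979 were autosomal, 1475 of these had any count and 138 reached the floor of 10. Malat1, Neat1, Snhg6 and Snhg20 were left out by name, which gave the 134. The floor was set on the same counts that are described here, so the levels are a description. The ARG1 status of a library was not used to choose the lincRNAs, but a lincRNA that is absent from 1 population could not enter, which limits the fold changes that could be seen. The lowest counts just inside the floor were 10 for Gm49662, Gm15834 and 6720427I07Rik, and those just outside were 9 for AC120429.1 and Gm39556 and 8 for Gm43821.

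The libraries were made from CX3CR1+ CD206- microglia of YARG mice at postnatal day 13, sorted from a dissected piece of forebrain that included the cerebral nuclei, without the olfactory bulb. All animals of both populations carried the YARG reporter, in which a yellow fluorescent protein (YFP) follows the stop codon of Arg1, the gene of the arginine-cleaving enzyme arginase-1. ARG1+ microglia were YFP+ and ARG1- microglia were YFP-, and females and males gave 3 libraries of each, with several brains pooled in every library. The gate reads the reporter protein: Arg1 itself had counts in 2 of 6 ARG1+ libraries (2 and 52) and in 0 of 6 ARG1- libraries, so the counts of Arg1 do not check the labels.

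lincRNAs act in several ways. Some keep to the nucleus and affect genes close to their own locus, some are exported and bind proteins or microRNAs, and others are spliced or processed into small RNAs such as microRNAs. Many have no known role, and their levels are often low and particular to a cell type. Of the 134, 80 had symbols starting with Gm and 34 had RIKEN symbols. LincRNAs with a studied role included Pvt1, the neighbour of Myc; 2900097C17Rik, the mouse Norad, which binds Pumilio proteins; Trp53cor1, or lincRNA-p21, a p53 target; Gm14005, or Morrbid, which lies near the apoptosis gene Bcl2l11 and affects the lifespan of myeloid cells; Mir142hg, the host of the blood-cell microRNA miR-142; and AW112010, which is induced in macrophages by inflammatory stimuli.

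The sequences of 4 promoters and 5 mature microRNAs are given because later results refer to them. RefSeq sequences (GRCm38.p6) covered 59 of the 134 lincRNAs, 47 of them with a RefSeq start within 500 bases of the GENCODE start. BC002059, Gm5165 and Gm6712 are lincRNAs of a zinc finger gene cluster on chromosome 17. Their promoters, from 250 bases before to 50 after the RefSeq start, at chr17:16951286-16951585, chr17:17234653-17234952 and chr17:17294193-17294492 on the + strand, hold the same run of 40 letters, shown in capitals. The RefSeq starts lie 3, 31 and 0 bases from the GENCODE starts.
BC002059: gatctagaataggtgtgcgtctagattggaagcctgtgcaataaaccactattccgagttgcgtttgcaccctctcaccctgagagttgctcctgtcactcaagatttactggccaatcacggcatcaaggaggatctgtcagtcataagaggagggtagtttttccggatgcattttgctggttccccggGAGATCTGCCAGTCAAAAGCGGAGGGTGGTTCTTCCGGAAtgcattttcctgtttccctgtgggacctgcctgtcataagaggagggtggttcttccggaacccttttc
Gm5165: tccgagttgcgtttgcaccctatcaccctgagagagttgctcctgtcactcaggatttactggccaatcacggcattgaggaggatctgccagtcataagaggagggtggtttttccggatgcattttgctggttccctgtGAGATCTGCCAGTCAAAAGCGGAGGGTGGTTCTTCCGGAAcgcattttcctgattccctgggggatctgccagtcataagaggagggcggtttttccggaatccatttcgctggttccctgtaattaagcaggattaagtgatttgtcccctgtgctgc
Gm6712: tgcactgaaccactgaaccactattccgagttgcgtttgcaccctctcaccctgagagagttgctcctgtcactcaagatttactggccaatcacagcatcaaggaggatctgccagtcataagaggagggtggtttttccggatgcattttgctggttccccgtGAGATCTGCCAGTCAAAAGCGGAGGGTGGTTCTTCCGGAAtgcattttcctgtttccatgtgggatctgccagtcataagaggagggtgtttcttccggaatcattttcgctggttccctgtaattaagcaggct
This run was taken as the longest that all 3 promoters share, and the shorter run below as the longest also in Zfp97. Their presence in the promoters that define them was therefore fixed in advance. Both strands of all 32851 promoters in the RefSeq table were searched for the run of 40 letters, and it was found in no others than these 3 (0.00913%). The run describes how alike the 3 promoters are, and no binding was examined. The promoter of the protein coding gene Zfp97, which lies between BC002059 and Gm5165, shares a shorter run of 21 letters, TCCGAGTTGCGTTTGCACCCT, with all 3, and 5 promoters of the table (0.0152%) hold it.

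Gm5086 was the lincRNA with the smallest adjusted p between the populations. Its promoter lies at chr13:97559750-97560049 on the + strand, with the bases after the RefSeq start in capitals, 29 bases from the GENCODE start.
Gm5086: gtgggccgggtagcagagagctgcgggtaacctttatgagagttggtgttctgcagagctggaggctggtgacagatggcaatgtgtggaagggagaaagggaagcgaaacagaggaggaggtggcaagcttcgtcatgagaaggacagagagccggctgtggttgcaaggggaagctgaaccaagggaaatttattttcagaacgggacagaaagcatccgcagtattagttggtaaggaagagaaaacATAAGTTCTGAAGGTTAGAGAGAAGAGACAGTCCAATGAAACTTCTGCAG
Mir142hg (chromosome 11) and 6720427I07Rik (chromosome 13) hold microRNA genes, whose mature sequences are shown with the seed, bases 2 to 8, in capitals. The arms of miR-142a have seeds of their own, while the let-7 microRNAs of 6720427I07Rik share 1 seed.
mmu-miR-142a-5p: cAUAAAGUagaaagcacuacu
mmu-miR-142a-3p: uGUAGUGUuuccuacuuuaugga
mmu-let-7a-5p: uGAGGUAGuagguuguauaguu
mmu-let-7d-5p: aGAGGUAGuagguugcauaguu
mmu-let-7f-5p: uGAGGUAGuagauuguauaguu

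Library totals ranged from 28356659 to 60625170 counts, so that the floor of 10 counts corresponded to 0.165 to 0.353 CPM (counts relative to the library total, before scaling). All levels below are CPM on normalized library totals, and lincRNAs are ranked by level only per kb of exon (RPKM), while shares of a summed CPM and bands of CPM describe how many reads lay behind the values. Markers of microglia summed to 63120 to 88060 CPM in ARG1- and 53590 to 65900 CPM in ARG1+ microglia. Of their 10 genes, 6 were lower and 1 higher in ARG1+ microglia. Border macrophage markers summed to 109.6 to 144.6 CPM in ARG1- and 113.8 to 241.8 CPM in ARG1+ microglia, with 1 of 5 tested genes higher (Folr2). Most of this sum was Mrc1, with means of 121.5 and 147.2 CPM, which was not called. Astrocyte markers summed to 178.6 to 223.8 and 130.2 to 151.7 CPM, with 1 of 8 lower. That gene, Slc1a3, made up most of the sum, with means of 175.6 and 130.7 CPM. The other astrocyte markers had means of at most 9.55 CPM and did not all point the same way. Oligodendrocyte lineage markers summed to 86 to 179.1 CPM in ARG1- and 57.13 to 123.4 CPM in ARG1+ microglia, with 0 of 8 called (median log2 fold change -0.91). Neuron markers stayed at or under 16.75 CPM and endothelial markers at or under 84.29 CPM, with 0 called, and the endothelial marker Cldn5 was at 0. Most of the endothelial sum was Pecam1, with means of 36.48 CPM in ARG1- and 53.15 CPM in ARG1+ microglia. Erythroid genes summed to 3.692 to 17.75 CPM in ARG1- and at most 3.387 CPM in ARG1+ microglia, with 1 of 5 lower (Hbb-bt), and monocyte genes to 5.119 to 14.13 and 3.704 to 7.767 CPM, with Plac8 lower and Fn1 higher of 4 tested. Loci that collect ribosomal RNA reads were lower in 3 of 3 cases, from 737.6 to 1599 CPM in sum in ARG1- to 212.8 to 421.9 CPM in ARG1+ microglia (median log2 fold change -1.71). A list of 12 genes held nuclear-retained RNAs and genes with some transcripts kept in the nucleus with introns left in. All but Malat1 and Neat1 are protein coding, and counts per gene do not separate retained from exported transcripts. Of the 12 genes, 7 were higher in ARG1+ microglia and 0 lower. Their summed levels were 2370 to 4702 CPM in ARG1- and 5022 to 8459 CPM in ARG1+ microglia. The part of these differences in the results below was not tested. In bulk samples, fewer cells of a type and less RNA per cell cannot be told apart.

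The 134 lincRNAs took a small share of the RNA. They held 0.123% to 0.206% of the counts of a library, and their summed level was 1695 ± 208.5 CPM in ARG1- and 1624 ± 119.8 CPM in ARG1+ microglia (mean ± SD, n = 6 libraries each). ARG1- libraries ranged from 1355 to 2007 CPM and ARG1+ libraries from 1458 to 1774 CPM, so the populations overlapped. The 10 lincRNAs with the most reads made up 48.8% of this sum and the first, AC102342.2, 14.6%. The median mean level of a lincRNA was 3.29 RPKM, and the range was from 0.20 to 152 RPKM. Exon length ranged from 154 to 16543 bases with a median of 1732.5, and 19 lincRNAs had 1 exon.

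Per kb, AC102342.2 was the most abundant lincRNA, with mean levels of 144 RPKM in ARG1- and 161 RPKM in ARG1+ microglia. It lies on chromosome 18 and no gene shares its exons. It was found at 122.8, 232.9 and 299.4 CPM (lowest, median and highest library) in ARG1- and at 215.4, 252.7 and 319.8 CPM in ARG1+ microglia, overlapping ranges with a log2FC, the log2 fold change of ARG1+ against ARG1-, of 0.18 ± 0.18 (± SE here and below, adjusted p = 0.567). Gm39214 followed with 41.0 and 33.6 RPKM (log2FC -0.26 ± 0.15, adjusted p = 0.268). Gm5086 (44.7 and 28.01 RPKM) and A830052D11Rik (36.9 and 28.2 RPKM) came next and were lower in ARG1+ microglia. Gm41071, the fifth, had 24.1 and 25.8 RPKM (log2FC 0.10 ± 0.26, adjusted p = 0.847). The order among these 5 was not tested.

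The question of the comparison was whether ARG1+ microglia differ in gene expression from ARG1- microglia of the same area. The lincRNAs changed in few cases: 4 of 134 were higher in ARG1+ microglia (2.99%) and 8 were lower (5.97%), by edgeR's quasi-likelihood test with sex as a second term and Benjamini-Hochberg adjustment over all 16908 genes tested. Of all genes tested, 6.44% were higher and 9.42% lower, 15.9% in all. Of the 11272 autosomal genes that reached the same floor, 7.19% were higher and 13.3% lower. At an unadjusted p under 0.05, 31 lincRNAs passed (23.1%), against 29.1% of all genes tested and 35.5% of the autosomal genes at the floor. The populations did not overlap in 2 lincRNAs with higher levels (1.49%, against 3.48% of all genes tested) and in 6 with lower levels (4.48%, against 6.56%), where the autosomal genes at the floor gave 3.49% and 8.86%. With the trend of each library on gene length and GC content removed, 3 lincRNAs were called higher and 20 lower, while the median log2 fold change of all genes moved from 0.06 to -0.26.

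The lincRNAs had lower levels than the other genes at the floor, with a median of 2.29 against 4.85 on the log2 CPM scale, and the shares called were therefore also compared within bands of level. In a level band of under 2 CPM, 2 of 28 lincRNAs were called (7.14%, against 2.97% of the autosomal genes at the floor in that band). From 2 to 5 CPM it was 2 of 40 (5%, against 6.72%), from 5 to 20 CPM 3 of 47 (6.38%, against 13.5%), and over 20 CPM 5 of 19 (26.3%, against 26.8%). The median log2 fold change of the lincRNAs was -0.10, beside -0.02 for all autosomal genes at the floor, and 58 of the 134 had a positive value. The 343 lincRNAs that were tested but did not belong to the 134 had a median of 0.63 and 14 calls higher (4.08%) and 3 lower (0.875%). They missed the floor, lay off the autosomes or were left out by name. Their median level was -0.82 on the log2 CPM scale, and their median SE was 1.24, against 0.36 for the 134. The filter for testing let a lincRNA enter through the group where it was high, so their median cannot show a shift.

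**Figure D1:**
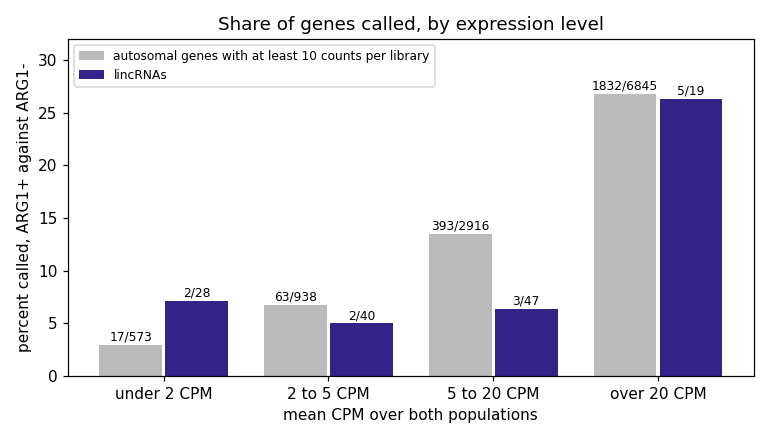
Percent of genes called between ARG1+ and ARG1- microglia (vertical axis) in 4 bands of mean CPM (horizontal axis), for 134 lincRNAs and for the 11272 autosomal genes that reached 10 counts in all libraries, which include them. Numbers over the bars are genes called of genes in the band. Over 20 CPM both shares are close to 26%, and from 5 to 20 CPM the lincRNAs are below.

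**Figure D2:**
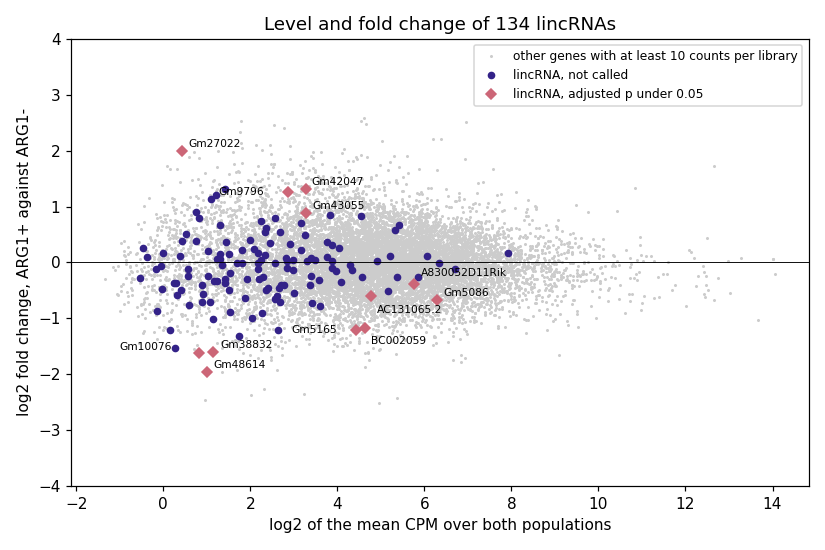
Log2 fold change, ARG1+ against ARG1- (vertical axis), by the log2 of mean CPM (horizontal axis). Grey points are the other 11138 autosomal genes at the floor, circles lincRNAs that were not called and diamonds the 12 called lincRNAs, which range from -1.96 (Gm48614) to 1.99 (Gm27022).

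The lincRNA with the smallest adjusted p was Gm5086 (ENSMUSG00000110235, chr13:97559971-97583996, + strand), whose promoter is printed above. It has 4 exons, and no window of 75 bases, the length of a read, is shared with another annotated transcript. Its levels were 86.05, 92.8 and 109.5 CPM (lowest, median and highest) in ARG1- and 47.8, 61.9 and 70.8 CPM in ARG1+ microglia. All ARG1+ libraries were below all ARG1- libraries. The log2FC was -0.67 ± 0.12 (adjusted p = 0.00342), with -0.65 in females and -0.70 in males. It stayed under the limit with each of the 12 libraries left out (adjusted p up to 0.0131).

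**Figure D3:**
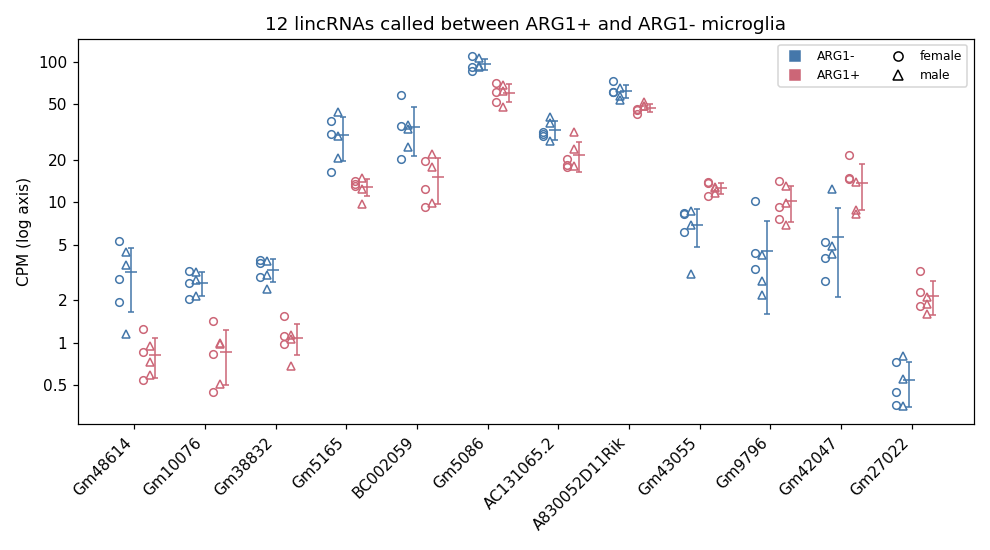
CPM on a log axis (vertical) of the 12 called lincRNAs (horizontal) in every library, circles for females and triangles for males, with the mean and SD of 6 libraries per population beside the points. Gm5086 has ARG1+ libraries at 47.8 to 70.8 CPM, all below the ARG1- libraries, and Gm27022 has ARG1+ libraries at 1.60 to 3.25 CPM, all above.

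A further 3 of the lincRNAs that were lower had mean levels of at most 3.31 CPM in either population. Gm38832 (ENSMUSG00000108371, chr6:72162849-72167707, + strand, 8278 bases from the sialyltransferase gene St3gal5) was at 2.41, 3.37 and 3.90 CPM in ARG1- and at 0.68, 1.10 and 1.54 CPM in ARG1+ microglia (log2FC -1.61 ± 0.33, adjusted p = 0.00653). St3gal5 was not called (log2FC 0.12 ± 0.09, adjusted p = 0.411). Gm10076 (ENSMUSG00000060143, chr14:105681828-105682211, + strand) has a single exon, and 51.3% of its 75-base windows are shared with the ribosomal protein gene Rpl41, so its reads may come from either. It was at 2.04, 2.71 and 3.25 CPM in ARG1- and at 0.44, 0.90 and 1.43 CPM in ARG1+ microglia (log2FC -1.63 ± 0.40, adjusted p = 0.0175). Gm48614 (ENSMUSG00000112360, chr10:8001943-8021292, - strand) had the lowest fold change of the 134, -1.96 ± 0.45 (adjusted p = 0.0119), with 1.16, 3.18 and 5.32 CPM in ARG1- and 0.54, 0.79 and 1.25 CPM in ARG1+ microglia. Its ranges overlapped, since 1 ARG1+ library was above the lowest ARG1- library. Tab2, a kinase adaptor and the gene nearest to Gm48614, was not called (log2FC -0.13 ± 0.18, adjusted p = 0.670).

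The zinc finger cluster on chromosome 17, whose promoters share a run of letters, had 2 of its 3 lincRNAs lower in ARG1+ microglia. The share called lower was 9.42% of all genes tested and 13.3% of the autosomal genes at the floor. Gm5165 (ENSMUSG00000116802, chr17:17234872-17266063, + strand) was at 16.3, 30.3 and 44.1 CPM in ARG1- and at 9.77, 13.2 and 14.98 CPM in ARG1+ microglia. No library overlapped (log2FC -1.21 ± 0.24, adjusted p = 0.00566). BC002059 (ENSMUSG00000060149, chr17:16951539-16974157, + strand) was at 20.3, 34.2 and 58.0 CPM in ARG1- and at 9.20, 15.2 and 21.9 CPM in ARG1+ microglia, where 1 ARG1+ library lay above the lowest ARG1- library (log2FC -1.18 ± 0.30, adjusted p = 0.0190). Zfp97, a protein coding zinc finger gene between them and the nearest to Gm5165, was at 6.45 to 12.85 CPM in ARG1- and at 1.65 to 4.73 CPM in ARG1+ microglia (log2FC -1.53 ± 0.30, adjusted p = 0.00576). Gm6712 (chr17:17294443-17319511, + strand), which has the same 40 letters in its promoter, was not called: 5.13, 6.76 and 11.4 CPM in ARG1- and 3.02, 4.65 and 13.04 CPM in ARG1+ microglia (log2FC -0.40 ± 0.40, adjusted p = 0.548). Its log2FC was -0.77 without ARG1+ female replicate 7 and between -0.24 and -0.23 without ARG1- male replicate 14 or ARG1+ male replicates 11 or 16, and it was not called in any of these fits. The 3 lincRNAs share few 75-base windows with other genes, 3.16% in BC002059, 2.27% in Gm5165 and 10.4% in Gm6712. BC002059 and Gm6712 were chosen after their values were seen, so the count of 2 of 3 is a description.

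**Figure D4:**
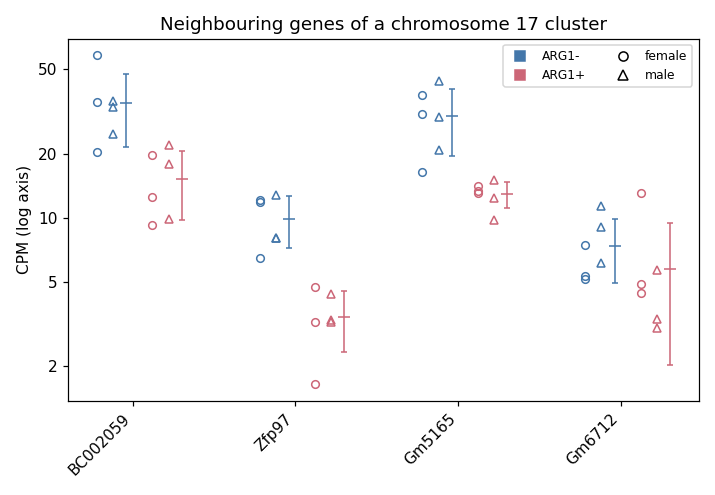
CPM on a log axis (vertical) of BC002059, Zfp97, Gm5165 and Gm6712 (horizontal) in every library, circles for females and triangles for males, with mean and SD of 6 libraries per population. Zfp97 and Gm5165 have no overlap between the populations, while Gm6712 has an ARG1+ female library at 13.04 CPM above all others.

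Among lincRNAs that overlap a protein coding gene, 2 were lower together with that gene. Reads of the kit do not keep the strand, so a lincRNA and a gene on the other strand cannot be told apart where their exons overlap. A830052D11Rik (ENSMUSG00000097413, chromosome 18, - strand) overlaps exons of Bin1, a membrane-shaping protein gene on the other strand, with 11.3% of its 75-base windows shared. It was at 53.6, 60.8 and 73.0 CPM in ARG1- and at 42.7, 47.5 and 51.4 CPM in ARG1+ microglia, with no overlap (log2FC -0.39 ± 0.11, adjusted p = 0.0265). Bin1 was lower by a like size (log2FC -0.40 ± 0.08, adjusted p = 0.00592; 693 to 854 CPM in ARG1- and 521 to 640 CPM in ARG1+ microglia). AC131065.2 (ENSMUSG00000118061, chromosome 18, + strand) overlaps exons of Rbfa, a mitochondrial ribosome assembly factor, with 19.4% of windows shared. Its levels were 27.2, 31.2 and 40.5 CPM in ARG1- and 17.9, 19.3 and 31.5 CPM in ARG1+ microglia, which overlap (log2FC -0.60 ± 0.16, adjusted p = 0.0224), and Rbfa had a log2FC of -0.64 ± 0.14 (adjusted p = 0.00791). Both calls depended on single libraries. A830052D11Rik lost its call without any of ARG1- female replicate 1, ARG1- male replicate 6, all 3 ARG1+ female libraries or ARG1+ male replicates 12 and 16 (adjusted p up to 0.0730). AC131065.2 lost it without ARG1- female replicate 1, any ARG1+ female library or ARG1+ male replicates 12 and 16 (adjusted p up to 0.0679).

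The 4 lincRNAs called higher had mean levels of at most 13.7 CPM in either population, and 3 of the 4 shared 56.1% or more of their windows with other genes. Gm27022 (ENSMUSG00000098155, chr4:136347847-136349441, - strand) rose from 0.36, 0.50 and 0.80 CPM in ARG1- to 1.60, 1.99 and 3.25 CPM in ARG1+ microglia without overlap (log2FC 1.99 ± 0.42, adjusted p = 0.00817). It overlaps the RNA-binding protein gene Hnrnpr on the other strand, with 88.9% of its windows shared, and Hnrnpr itself showed a log2FC of -0.01 ± 0.14 (adjusted p = 0.964). Gm43055 (ENSMUSG00000105704, chr5:86728906-86817106, + strand) was at 3.08, 7.61 and 8.60 CPM in ARG1- and at 11.01, 12.8 and 13.96 CPM in ARG1+ microglia, again with no overlap (log2FC 0.88 ± 0.24, adjusted p = 0.0294). It shares 69.7% of its windows with Ythdc1, a nuclear reader of methylated RNA on the same strand, which was also higher (log2FC 0.96 ± 0.26, adjusted p = 0.0272; 15.6 to 54.8 CPM in ARG1- and 56.2 to 82.6 CPM in ARG1+ microglia). The call of Gm43055 was lost without ARG1- female replicate 2, ARG1+ female replicates 8 and 15 or ARG1+ male replicates 12 and 16 (adjusted p up to 0.0612).

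Gm9796 and Gm42047 were called higher although their ranges overlapped. Gm9796 (ENSMUSG00000045075, chr11:95696894-95699143, - strand, 1 exon, no shared window) was at 2.17, 3.78 and 10.2 CPM in ARG1- and at 6.87, 9.61 and 14.2 CPM in ARG1+ microglia (log2FC 1.26 ± 0.36, adjusted p = 0.0326). ARG1- female replicate 1 lay apart from the other 5 ARG1- libraries, which reached 4.32 CPM at most. Zfp652, a zinc finger repressor gene 13530 bases away, was lower (log2FC -0.40 ± 0.11, adjusted p = 0.0312). The call of Gm9796 was lost without ARG1- female replicates 2 and 13, ARG1+ female replicate 7, ARG1- male replicates 6 and 14 or ARG1+ male replicates 11 and 16, each left out alone (adjusted p up to 0.0778). Gm42047 (ENSMUSG00000110631, chr8:121833247-121841178, + strand) was at 2.76, 4.59 and 12.5 CPM in ARG1- and at 8.27, 14.3 and 21.7 CPM in ARG1+ microglia (log2FC 1.31 ± 0.39, adjusted p = 0.0413), and 56.1% of its windows occur in other genes. The log2FC was 2.10 in females and 0.52 in males, a difference of 1.58 ± 0.63 with an adjusted p of 0.499. Its call was kept in 3 of 12 fits that left out a library, those without ARG1- male replicate 14 or ARG1+ male replicates 11 and 16, and was lost without any of the other 9 (adjusted p up to 0.0980).

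None of the lincRNAs with studied roles was called, and 3 of them lay close to the limit. 11 of the 134 were on a list of long RNAs with studied roles, chosen from textbook knowledge, and 0 of the 11 were called, while of the 33 tested genes of the whole list 3 were higher and 1 lower. Of all genes tested, 15.9% were called. At an unadjusted p under 0.05 it was 3 of the 11, against 29.1% of all genes tested. By DESeq2's Wald test 3 of the 11, 2900097C17Rik, AW112010 and Lockd, were called, against 22.0% of all genes. 2900097C17Rik (Norad), which binds Pumilio proteins, was at 26.3, 30.6 and 46.0 CPM in ARG1- and at 36.0, 48.5 and 59.8 CPM in ARG1+ microglia (log2FC 0.58 ± 0.18, adjusted p = 0.0521), and 34.5% of its windows are shared with Gm7292. It was under the limit in 6 of 11 alternative settings, among them other size factors and ARG1 status alone, and in 3 of 12 fits that left out a library. AW112010 was at 4.26, 7.53 and 14.6 CPM in ARG1- and at 2.23, 3.21 and 6.32 CPM in ARG1+ microglia (log2FC -1.21 ± 0.39, adjusted p = 0.0542). Lockd, which lies next to the cell cycle inhibitor gene Cdkn1b, was at 3.61, 6.14 and 6.43 CPM in ARG1- and at 1.17, 3.11 and 3.59 CPM in ARG1+ microglia. Its ranges do not overlap, yet the log2FC was -0.99 ± 0.33 (adjusted p = 0.0610). AW112010 and Lockd were under the limit in 4 of 11 alternative settings each, and in 3 and 1 of 12 fits that left out a library.

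The other lincRNAs of the list had larger errors or smaller differences. Pvt1 was at 1.80, 3.25 and 15.6 CPM in ARG1- and at 2.52, 8.53 and 10.9 CPM in ARG1+ microglia (log2FC 0.08 ± 0.59, adjusted p = 0.946). Trp53cor1 had a log2FC of 0.24 ± 0.47 (adjusted p = 0.782), 1700020I14Rik of 0.12 ± 0.20 (adjusted p = 0.751), Epb41l4aos of 0.11 ± 0.38 (adjusted p = 0.887) and Gm20342 of 0.55 ± 0.46 (adjusted p = 0.482). For Gm14005 (Morrbid) the value was -0.01 ± 0.40 (adjusted p = 0.993), while its neighbour Bcl2l11, 15772 bases away, was higher (log2FC 0.70 ± 0.20, adjusted p = 0.0327). AU020206 had a log2FC of 0.84 ± 0.39 (adjusted p = 0.174) and its neighbour Akap13, an anchoring protein of protein kinase A, was higher (log2FC 0.95 ± 0.19, adjusted p = 0.00644). Ino80d, a chromatin remodelling subunit gene next to Gm20342, was higher too (log2FC 1.52 ± 0.46, adjusted p = 0.0415). Of the nearest protein coding genes of the 11, 10 were tested, 3 were higher and 0 lower. Of all genes tested, 6.44% were higher and 9.42% lower. Those not called were Myc (log2FC 0.21 ± 0.29), Cnbd2 (-0.18 ± 0.29), Oip5 (-0.18 ± 0.44), Cdkn1a (0.10 ± 0.22), Tspoap1 (2.36 ± 1.33), Epb41l4a (1.95 ± 1.04) and Cdkn1b (-0.56 ± 0.29), with adjusted p from 0.234 to 0.828.

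Of the hosts of small RNA genes, edgeR called 0 of 5, with 0 at an unadjusted p under 0.05, and DESeq2 0, where of all genes 15.9% were called by edgeR, 29.1% had an unadjusted p under 0.05 and 22.0% were called by DESeq2. Mir142hg, which carries the miR-142a sequences above, was at 2.67, 4.36 and 4.66 CPM in ARG1- and at 3.56, 6.14 and 8.79 CPM in ARG1+ microglia (log2FC 0.55 ± 0.28, adjusted p = 0.222). 6720427I07Rik, the host of the let-7 sequences with the shared seed, was at 0.33, 1.16 and 2.45 CPM in ARG1- and at 0.66, 2.13 and 3.40 CPM in ARG1+ microglia (log2FC 0.90 ± 0.49, adjusted p = 0.250). 2900076A07Rik, the host of Mir1839, had a log2FC of 0.13 ± 0.36 (adjusted p = 0.852). These values describe the host RNAs, and the mature microRNAs were not measured in these libraries.

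By position, 26 lincRNAs started within 1000 bases of a gene on the other strand, and edgeR called 0 of these (15.9% of all genes), with 5 at an unadjusted p under 0.05 (29.1%) and 2 called by DESeq2 (22.0%). Of a further 42 that overlapped a gene on the other strand but neither started so close to one nor held a small RNA gene, 2 were higher and 2 lower, and of the 61 in no such class, 2 were higher and 6 lower. Counted by exons alone, whatever the class, 47 lincRNAs overlapped a gene on the other strand, and 1 was higher and 2 lower. The nearest protein coding gene was tested for 121 of the 134 lincRNAs, and it was higher for 13 and lower for 13. Of all genes tested, 6.44% were higher and 9.42% lower, and of the 9697 protein coding genes at the floor 7.51% and 14.4%. The neighbours did not have to reach that floor. The 134 lincRNAs have 124 different nearest genes, so some genes count more than once. With neighbours within 50 kb only, it was tested for 101 of 109 and was higher for 11 and lower for 10. For 4 of the 12 called lincRNAs the neighbour was called too, where 15.9% of all genes tested were called. The neighbours of some of the 12 were not tested. The direction was the same for Gm5165 with Zfp97, AC131065.2 with Rbfa and A830052D11Rik with Bin1, and opposite for Gm9796 with Zfp652. In 2 of these 4, exons overlap. Gm43055 was not counted, since Tmprss11e, its nearest gene by the rule used, was not tested. It shares exon positions with Ythdc1 as well, and both were higher.

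The sexes were compared as well. In ARG1- microglia 0 lincRNAs differed between females and males at an adjusted p under 0.05, in edgeR's quasi-likelihood test on the 4 group means. By the same test 0.0946% of all genes and 0.00887% of the autosomal genes at the floor were called. At an unadjusted p under 0.05 it was 13 of 134 lincRNAs (9.70%, against 10% of all genes and 8.33% of the autosomal genes at the floor). The smallest p was that of Gm49797, at 3.12, 2.80 and 2.73 CPM in the 3 female and 5.13, 5.62 and 5.69 CPM in the 3 male libraries (log2 difference, females against males, -0.93 ± 0.30, adjusted p = 0.428). The next were 4933424M12Rik (1.30 ± 0.43), Gm26916 (-1.51 ± 0.51), Gm13291 (-1.57 ± 0.56) and Gm39214 (0.50 ± 0.18), with adjusted p from 0.436 to 0.445. Gm26916 shares 74.8% of its windows with Dleu2 on the other strand, so its reads may come from either. Without ARG1- male replicate 14 the difference of Gm13291 was -0.84. By DESeq2's Wald test, 2 lincRNAs, Gm49797 and Gm26916, were called (1.49%, against 2.26% of all genes by the same test). In ARG1+ microglia 0 were called by edgeR or by DESeq2, where 0.0355% of all genes were called by edgeR and 0.131% by DESeq2, and 5 had an unadjusted p under 0.05 (3.73%, against 3.12%): A830008E24Rik (0.80 ± 0.26), Gm10605 (-0.60 ± 0.20), E430024I08Rik (0.97 ± 0.41), 1700020I14Rik (0.57 ± 0.25) and Gm26916 (1.12 ± 0.50). Without ARG1+ female replicate 8 the difference of 1700020I14Rik was 0.33. Among the autosomal genes at the floor, edgeR called 0% between the sexes in ARG1+ microglia, and 3.48% had an unadjusted p under 0.05.

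The ARG1 effect pointed the same way in females and males for 80 of the 134 lincRNAs, 33 higher and 47 lower in both. All 12 called lincRNAs were among them, which the call over both sexes favours. The same count was not made over all genes, so the 80 are a description. Within females 7 of the 134 were called (5.22%, against 6.76% of all genes), 3 of them among the 12, and within males 2 (1.49%, against 5.13%), both among the 12. The difference between the effects was called for 0 lincRNAs by edgeR, as for all genes (0%), and 16 had an unadjusted p under 0.05 (11.9%, against 9.32%). DESeq2 called 3, Gm10605, Gm26916 and Gm49797, where it called 1.63% of all genes. The smallest p was that of Gm10605, whose log2 fold change, ARG1+ against ARG1-, was -0.59 in females and 0.56 in males (difference -1.15 ± 0.29, adjusted p = 0.433). It was at 122.8, 74.4 and 91.1 CPM in ARG1- and 67.1, 70.8 and 54.1 CPM in ARG1+ female libraries, and at 59.2, 79.1 and 58.0 CPM in ARG1- and 89.0, 93.9 and 107.3 CPM in ARG1+ male libraries. The 3 libraries of each population did not overlap in either sex. Of its windows 30.7% are shared with Tpbgl on the other strand. Gm26916 (2.63 ± 0.71), Gm20707 (1.53 ± 0.48), Gm13291 (2.39 ± 0.78) and D930016D06Rik (1.02 ± 0.35) followed, with adjusted p from 0.433 to 0.486. The reads of Gm26916 may also come from Dleu2, with which it shares 74.8% of its windows.

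**Figure D5:**
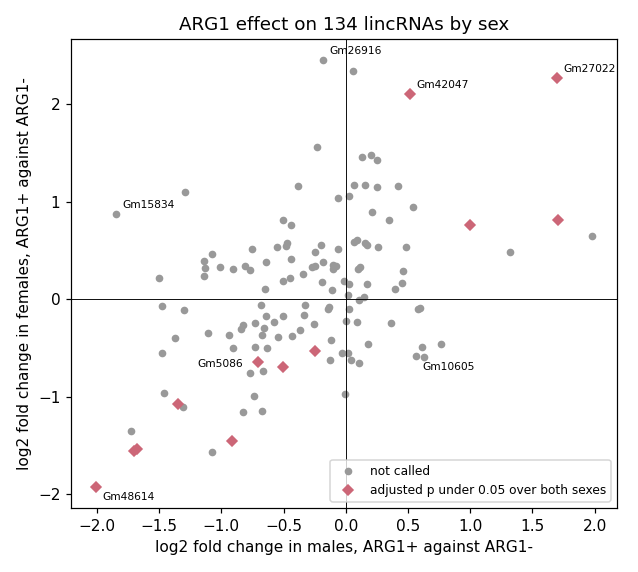
Log2 fold change, ARG1+ against ARG1-, of the 134 lincRNAs in females (vertical axis) and in males (horizontal axis), with diamonds for the 12 called over both sexes. 80 lincRNAs have the same sign in both, and Gm26916, Gm15834 and Gm10605 are labelled among those with opposite signs.

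The libraries of ARG1- microglia varied more. The SD of log2 CPM over 6 libraries was larger in ARG1- than in ARG1+ microglia for 100 of 134 lincRNAs (74.6%), beside 69.5% of the autosomal genes at the floor. The median SD of the lincRNAs was 0.60 in ARG1- and 0.46 in ARG1+ microglia, and that of all genes at the floor 0.38 and 0.29.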

How the data were processed

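Gene expression was measured by single-end RNA-seq of SMART-Seq v4 and Nextera XT libraries, which keep no strand. Per the submitters' processing notes and the study's methods, reads were converted with bcl2fastq 2.20.0, aligned to GRCm38 with STAR 2.6.1d and counted per gene with featureCounts 1.5.1, and populations were compared with DESeq2 1.28.1. The annotation release and the strand setting were not given in the sources used here. The deposited values are raw counts per gene, with no normalization by the authors. All 12 columns were matched to libraries by name and 0 were left unused. GENCODE M21 matched 55227 of 55487 identifiers, and the other 260 held 0.0333% of the counts.

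The analysis used edgeR 4.0.16 (R 4.3.3), with filterByExpr on the 4 groups, which kept 16908 genes, and TMM normalization. glmQLFit and glmQLFTest were run with sex and ARG1 status as terms, or on the 4 group means for sex contrasts, with Benjamini-Hochberg adjustment over all genes tested and a limit of 0.05. Standard errors were obtained from the fold change and F. RPKM used the union of exons. Shared windows are 75-base stretches of a lincRNA found on either strand in transcripts of other genes. Sequences are from RefSeq (GRCm38.p6).

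Replicate libraries differed by more than sampling noise (chi-square 40.7 to 125 times the degrees of freedom), so each was counted as 1 replicate. Per the study's methods a library is a pool of several brains and the replicates of a group are litters, so p-values measure the spread between pools. Reads carry no molecular identifiers, so copies made in amplification count separately.

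The lincRNAs and the gene lists were chosen with earlier results of these data known. The lincRNAs named are the 10 with the largest increase and the 10 with the largest decrease among called lincRNAs without overlap, the 5 highest per kb, those on the lists of studied and rRNA-like RNAs (the second list held none of the 134), the 5 of lowest p for each sex contrast and the interaction, those at the edge of the floor, microRNA hosts and the nearest genes of the first set. Gm48614, Gm42047, Gm9796, BC002059, AC131065.2 and Gm6712, and the overlapping or neighbouring genes Hnrnpr, Ythdc1, Tab2, Zfp652, Rbfa, Bcl2l11, Akap13 and Ino80d with the other nearest genes of the lincRNAs with studied roles, were named after their values were seen.

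Alternatives were DESeq2 size factors, upper-quartile factors, no filter, at least 10 counts in every library, DESeq2 1.42.0 (Wald test, no prior), ARG1 status alone, a term for libraries numbered 13 to 16, thinned counts, TMM factors from protein coding genes, removal of each library's trend on length and GC content (mgcv 1.9.3), glmTreat against 1.5-fold, and each library left out in turn.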

Additional observations from a re-analysis of the deposited data

Results flagged for a closer look

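A library far from the other 5 by Dixon's ratio was searched in 80 groups of 6 libraries. The groups were the named lincRNAs, and the share of counts and summed level of all 134, in ARG1- and in ARG1+ microglia. Such a library was found in 8 groups, where about 4 are expected by chance if CPM values are normally distributed, which was not tested. Gm42047 was at 12.5 CPM in ARG1- male replicate 14, against 2.76 to 5.19 CPM in the other ARG1- libraries. Gm13291 (20.9 CPM, against 2.12 to 8.80) and Gm20707 (25.6 CPM, against 7.37 to 12.6) stood out in the same library. Gm9796 was at 10.2 CPM in ARG1- female replicate 1, against 2.17 to 4.32 CPM. In ARG1- male replicate 6, 2900097C17Rik was at 46.0 CPM, against 26.3 to 32.6 CPM, and Gm14005 at 5.92 CPM, against 1.90 to 3.03 CPM. Gm41071 was at 8.74 CPM in ARG1+ male replicate 16, against 14.3 to 16.9 CPM, and Gm6712 at 13.04 CPM in ARG1+ female replicate 7, against 3.02 to 5.69 CPM.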

How the results depend on the processing

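No paired analysis was possible because the replicate numbers in the labels are different in every group and do not say which libraries share a litter. The number of lincRNAs that reached the floor was 134, and 111 with a floor of 20. The 12 calls between the populations (4 higher, 8 lower) became 7 (2 and 5) with no filter, 19 (6 and 13) with at least 10 counts in every library, 25 (10 and 15) with DESeq2's Wald test and 23 (3 and 20) with the trend on length and GC content removed, and 0 (0 and 0) of 134 passed glmTreat against 1.5-fold, where 13 had an unadjusted p under 0.05. Of all genes, 7.07%, 24.5%, 22% and 24% were called in the first 4 of these settings and 1.46% by glmTreat. DESeq2's calls held all 12 of the main test. With libraries left out in turn, 8 to 13 were called, 1 to 5 higher and 6 to 9 lower. The number called higher was 1 without ARG1- female replicate 2 and 2 without ARG1- female replicate 13, ARG1+ female replicates 7 or 8 or ARG1+ male replicates 12 or 16. Gm27022, Gm38832, Gm48614, Gm10076, Gm5086, BC002059 and Gm5165 passed in all 12 of these fits. Neighbouring genes called numbered 26, 1 by glmTreat, and 17 to 26 with libraries left out (17 without ARG1+ male replicate 16). Sex calls stayed at 0 with libraries left out, and DESeq2's Wald test gave 2 in ARG1- microglia and 3 for the difference between the sexes.

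Signs turned only in lincRNAs that were not called. With the trend on length and GC content removed, log2 fold changes were -0.0218 for Gm41071, -0.376 for Pvt1, -0.37 for 1700020I14Rik, -0.0242 for Epb41l4aos and -0.0605 for 2900076A07Rik. Gm14005 was at 0.0336 with DESeq2 size factors, 0.0104 with upper-quartile factors, 0.0296 with no filter, 0.0396 with at least 10 counts in every library, 0.0424 with DESeq2's Wald test, 0.0453 with ARG1 status alone, 0.00421 with the term for libraries 13 to 16, 0.026 with thinned counts and 0.0106 with factors from protein coding genes. With libraries left out, values ranged from -0.0447 to 0.245 for Gm41071, from -0.0961 to 0.685 for Pvt1, from -0.0165 to 0.231 for 1700020I14Rik, from -0.146 to 0.333 for Gm14005, from -0.00622 to 0.554 for Trp53cor1 and from -0.0796 to 0.388 for 2900076A07Rik. The cause was not tested, other than that the stricter filter and DESeq2 test other numbers of genes. Levels under 2 CPM, as in 28 of the lincRNAs, limit what these depths can show.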
